A study of Mus musculus with 9 samples.

Results

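In oocytes without Dicer, 91 genes with a low signal in wild-type oocytes stood higher. The genes were chosen by 3 measured values: a wild-type mean under 7 on the log2 signal scale, a Dicer knockout mean at least 2.38-fold higher, and all 3 Dicer knockout values above all 3 wild-type values. They come from 19938 genes, each read from the brightest of its probe sets over the 9 arrays, and only probe sets with a single gene symbol were used. Asns, Fgf21, Rangap1, Slc7a3 and the ribosomal and respiratory chain genes were left out by name, which removed 9 further genes that met the same limits. The Dicer knockout and wild-type values therefore chose these genes, and every difference between those groups is given for them as a description with no test. The 5 genes that mark the set are Tstd3, Radx, Saxo1, B4galnt2 and C9.

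The arrays measured total RNA of ovulated mouse oocytes at metaphase II, with 3 biological replicates each of Dicer knockout, Dgcr8 knockout and wild-type oocytes, all given as strain C57BL/6. The females had been given 7.5 IU of pregnant mare serum gonadotropin and 7.5 IU of human chorionic gonadotropin, and the eggs were freed 14 to 16 h later with hyaluronidase at 0.3 mg/ml and washed free of cumulus cells. The sources used here do not say how the knockouts were made, the animals' age, or how many eggs and females each array stands for, so the replicates' independence rests on the label. Values are log2 signals, relative between arrays, so that a shift shared by every transcript would not show. In such bulk RNA, fewer cells of a type and less RNA per cell cannot be told apart.

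Dicer is the ribonuclease that cuts microRNA hairpins and long double-stranded RNA into small RNAs, while Dgcr8 works only upstream of it, with Drosha, in making microRNAs from their primary transcripts. Mouse oocytes also hold endogenous small interfering RNAs, made by Dicer from double-stranded RNA without Dgcr8, which silence matching transcripts and transposons. A fully grown oocyte is nearly silent in transcription, so that its RNA at metaphase II was mostly made and stored while the oocyte grew.

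Each knockout was lowest in the gene it targets. Dicer1 averaged 10.72 ± 0.13 in Dicer knockout, 11.68 ± 0.06 in Dgcr8 knockout and 11.67 ± 0.01 in wild-type oocytes (log2, SD, n = 3 each). Dgcr8 averaged 8.46 ± 0.23 in Dicer knockout, 5.71 ± 0.26 in Dgcr8 knockout and 8.96 ± 0.10 in wild-type oocytes (log2, SD, n = 3 each). The sources used here do not place these probes inside or outside the deleted sequence. Over all genes the median log2 deviation from the wild-type mean lay between -0.04 and 0.01 in each array. Of 14 oocyte marker genes tested only Zp2, of the zona pellucida, was called, higher by 0.40 ± 0.09 without Dicer (SE, limma adjusted p 0.0199). This call was lost in 3 of 17 settings, up to 0.0843 without wild-type replicate 3. Zp3 was higher by 0.40 ± 0.13 (SE, limma adjusted p 0.0768). It was called with a signal floor of 6 and, with Zp1, without Dicer knockout replicate 3. Ooep was called lower with quantile normalization. The markers' log2 summed signal was 15.66 to 15.78 in Dicer knockout, 15.57 to 15.68 in Dgcr8 knockout and 15.62 to 15.67 in wild-type arrays.

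Tstd3, on chromosome 4, encodes a small protein with a rhodanese domain, the fold of thiosulfate sulfurtransferases. Its log2 signal was 10.16, 9.65 and 10.08 in Dicer knockout oocytes, 4.68, 4.19 and 4.33 in Dgcr8 knockout oocytes, and 4.78, 5.06 and 4.32 in wild-type oocytes, in the order of the replicates. The Dicer knockout mean was higher by 5.25, or 38.0-fold, while the 6 other values lay between 4.19 and 5.06 with the Dgcr8 knockout and wild-type ranges overlapping. Radx, on chromosome X, encodes a single-stranded DNA-binding protein that acts at replication forks in human cells. It measured 9.69, 9.08 and 9.88 in Dicer knockout oocytes, 5.77, 5.09 and 5.74 in Dgcr8 knockout oocytes, and 5.45, 5.98 and 5.78 in wild-type oocytes. Radx was higher by 3.81 (log2, 14.1-fold) without Dicer, and its lowest Dicer knockout value, in replicate 2, was far above all other arrays.

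Saxo1, on chromosome 4, encodes a protein that binds and stabilises axonemal microtubules. Its log2 signal was 9.31, 8.82 and 9.44 in Dicer knockout oocytes, 5.55, 5.64 and 5.68 in Dgcr8 knockout oocytes, and 5.66, 5.57 and 5.26 in wild-type oocytes, a difference of 3.69 between Dicer knockout and wild-type means (12.9-fold). B4galnt2, on chromosome 11, encodes the glycosyltransferase that adds N-acetylgalactosamine to make the Sd(a) blood group antigen. It stood at 9.52, 9.10 and 9.54 in Dicer knockout oocytes, 5.55, 5.87 and 5.99 in Dgcr8 knockout oocytes, and 6.16, 5.85 and 5.41 in wild-type oocytes, and the Dicer knockout mean was 3.58 above wild-type (11.97-fold). C9, on chromosome 15, encodes the complement component that polymerises into the pore of the membrane attack complex. It measured 8.28, 8.26 and 7.64 in Dicer knockout oocytes, 4.99, 4.72 and 4.67 in Dgcr8 knockout oocytes, and 4.28, 4.21 and 4.99 in wild-type oocytes, a difference of 3.56 (11.8-fold). For C9 the lowest Dicer knockout array was replicate 3, not 2 as in the other 4 genes, and the Dgcr8 knockout values overlapped wild-type in all 5 genes.

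**Figure D1:**
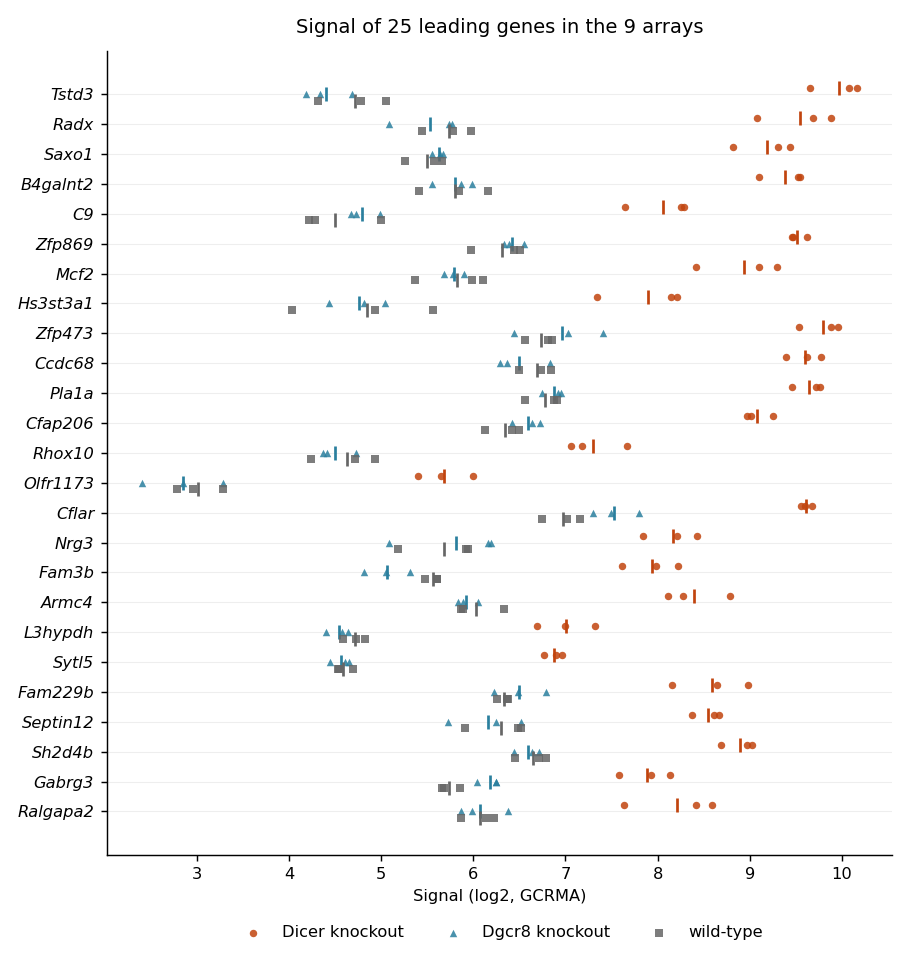
Log2 signal (horizontal axis) of the 25 genes with the largest difference once clone-type and predicted names are left out, 1 per line, in the 3 Dicer knockout, 3 Dgcr8 knockout and 3 wild-type arrays, with upright bars at the group means. For each gene every Dicer knockout value lies to the right of every other value, from a mean difference over wild-type of 5.25 in Tstd3 to 2.13 in Ralgapa2.

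Promoter sequence is printed for 4 of the marker genes and for Zfp869, to show how far the leading genes of the set resemble each other there. The RefSeq promoter table (build GRCm38.p6) held 83 promoters for 73 of the 91 genes. Each line gives the 120 bases before the start that this table uses, 5′ to 3′ on the gene's own strand, for Radx (chrX:139480247-139480366, plus strand), Saxo1 (chr4:86558304-86558423, minus strand), B4galnt2 (chr11:95914872-95914991, minus strand), C9 (chr15:6445226-6445345, plus strand) and Zfp869 (chr8:69716903-69717022, minus strand). That start can lie inside the outer bounds of the gene: all 120 bases lie within the annotated span of Zfp869 and 89 of 120 within that of B4galnt2, and none within those of the other 3. Capitals mark the letters of the TATA box TATAAA, the box CCAAT, the GC box GGGCGG, the homeobox words TAATTG and also TAATTA, and the E-box CACGTG, searched on either strand.
Radx: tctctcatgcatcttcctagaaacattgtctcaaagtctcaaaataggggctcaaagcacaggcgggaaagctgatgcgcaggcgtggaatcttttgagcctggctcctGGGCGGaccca
Saxo1: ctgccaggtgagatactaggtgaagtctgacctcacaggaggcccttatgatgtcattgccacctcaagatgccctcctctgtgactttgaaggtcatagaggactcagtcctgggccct
B4galnt2: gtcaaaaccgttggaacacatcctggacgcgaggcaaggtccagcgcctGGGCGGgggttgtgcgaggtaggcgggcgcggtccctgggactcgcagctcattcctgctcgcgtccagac
C9: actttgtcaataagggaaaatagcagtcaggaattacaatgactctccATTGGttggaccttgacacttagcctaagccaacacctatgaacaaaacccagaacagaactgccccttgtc
Zfp869: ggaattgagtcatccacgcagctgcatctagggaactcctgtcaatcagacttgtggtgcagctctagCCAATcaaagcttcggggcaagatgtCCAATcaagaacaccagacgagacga

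The 5 promoters shared no single motif. Radx and B4galnt2 each held 1 GGGCGG, C9 held CCAAT on the reverse strand, Zfp869 held CCAAT at 2 places, and the Saxo1 stretch held none of the letters searched. They also differed in CpG content: the ratio of observed to expected CpG over the 250 bases before the start was 0.85 in B4galnt2, 0.37 in Radx, 0.36 in Zfp869, 0.12 in Saxo1 and 0 in C9. Over the same 250 bases, TATAAA occurred in 3 of the 83 promoters (3.61%), those of Cflar, Pdha2 and Vav3, against 13.5% of the promoters of low genes outside the set and 12.4% of all promoters in the table. Over the genes tested TATAAA was in 8.27% of promoters. CCAAT occurred in 39.8% of the set's promoters, against 33.4% for low genes outside the set, 34.3% for the genes tested and 33.8% for all promoters. GGGCGG occurred in 38.6%, against 37.0% for low genes outside the set, 49.7% for the genes tested and 32.7% for all. CACGTG occurred in 7.23%, against 5.80% for low genes outside the set, 7.50% for the genes tested and 6.02% for all. The GGGCGG and CACGTG shares thus lay only slightly above those of low genes outside the set, and below those of the genes tested. CACGTG was in 6 of the 83 promoters, and some genes count with more than 1 promoter. TAATTG occurred in 4.82%, against 7.004% for low genes outside the set, 5.06% for the genes tested and 7.17% for all, and TAATTA in 0, against 4.98% for low genes outside the set, 3.23% for the genes tested and 4.84% for all. The median CpG ratio of the set was 0.51, against 0.40 in low genes outside it and 0.63 over the genes tested. These shares describe letters in a window and were not tested.

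Across the 91 genes the difference between Dicer knockout and wild-type means had a median of 1.68 (log2), which is 3.20-fold, with quartiles of 1.41 and 2.25. It reached 2 or more in 30 genes and 3 or more in 10, and was under 1.5 in 32. The same limits were met by 100 of 12637 low genes before names were left out, or 0.791% of low genes and 0.502% of all genes, while Dicer knockout values lay wholly above wild-type in 9.06% of all genes. The mirror image was rarer: 8 low genes, or 0.0633%, were lower by the same amount with no overlap, although their low wild-type signal leaves less room to fall. The gap between the lowest Dicer knockout and the highest wild-type value had a median of 1.27 and was at least 1 in 59 of the 91 genes. It was narrowest in Malat1, at 0.12.

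**Figure D2:**
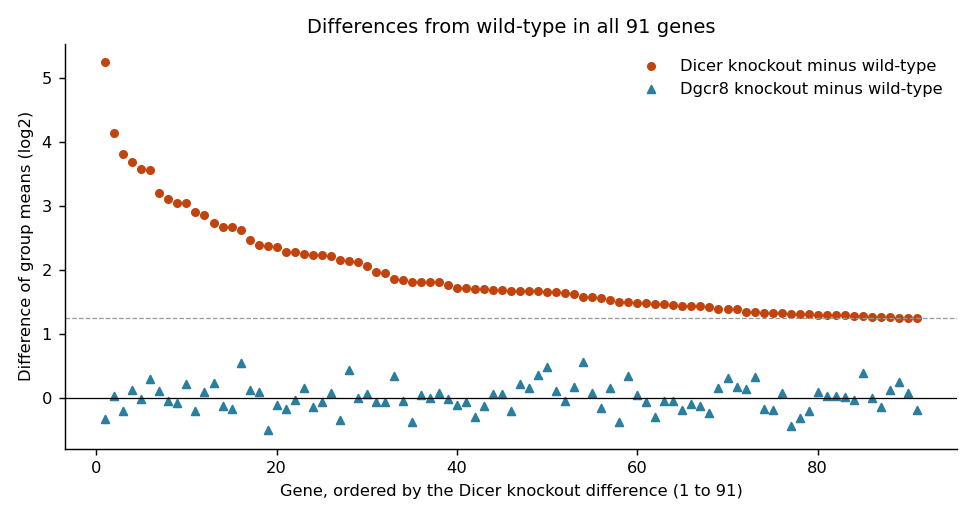
Difference of group means on the log2 scale (vertical axis) for all 91 genes, ordered by the Dicer knockout difference (horizontal axis), as Dicer knockout minus wild-type (circles) and Dgcr8 knockout minus wild-type (triangles). The dashed line is the difference limit that chose the genes, and the triangles lie between -0.50 and 0.57 on both sides of 0.

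The limits cut through a continuous range. Just inside the difference limit were Hmox1 (1.254), Tnfsf10 (1.26), Hace1 (1.26), Endod1 (1.26) and Grcc10 (1.27). Just outside were Try5 (1.24), Tlcd4 (1.23), Mall (1.21), Gm5150 (1.21) and Rarb (1.20). Just inside the wild-type limit were Grcc10 (wild-type mean 6.98), Tuba1a (6.98), Cflar (6.97), Ube2r2 (6.97) and Hyal3 (6.81). Just outside it, with differences of 1.253 to 1.62, were Lsm4 (7.03), Zfp933 (7.05), C1qb (7.09), Myh10 (7.11) and Rrp36 (7.15). Psme2 and Olfr461 passed both limits, but their groups overlapped.

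By role, 8 of the 91 genes belong to cilia, flagella and microtubules, with a median Dicer knockout difference of 2.30 (log2, 1.44 to 3.69). Besides Saxo1 they include Cfap206, a protein of the radial spokes that sperm flagella need, at 9.25, 9.02 and 8.97 in Dicer knockout oocytes, 6.63, 6.42 and 6.72 in Dgcr8 knockout oocytes, and 6.50, 6.42 and 6.12 in wild-type oocytes. Armc4, which docks outer dynein arms on axonemes, measured 8.79, 8.11 and 8.27 in Dicer knockout oocytes, 5.84, 5.89 and 6.05 in Dgcr8 knockout oocytes, and 5.89, 6.33 and 5.86 in wild-type oocytes. Septin12, a septin of the sperm annulus, measured 8.66, 8.37 and 8.61 in Dicer knockout oocytes, 5.73, 6.24 and 6.51 in Dgcr8 knockout oocytes, and 6.52, 6.48 and 5.91 in wild-type oocytes. In each of these 3 genes the Dicer knockout arrays stood apart by more than 1.5, with mean differences of 2.73, 2.36 and 2.24, and the Dgcr8 knockout values overlapped wild-type. Ccdc68, a protein of centriole appendages, measured 9.78, 9.39 and 9.62 in Dicer knockout oocytes, 6.37, 6.83 and 6.29 in Dgcr8 knockout oocytes, and 6.74, 6.49 and 6.84 in wild-type oocytes, a difference of 2.91. The alpha-tubulin gene Tuba1a ranged over 8.96 to 9.18 without Dicer, 6.94 to 7.13 without Dgcr8 and 6.36 to 7.68 in wild-type, with the widest wild-type spread of the group. Tbcd, a cofactor that folds tubulin, ranged over 8.17 to 8.69 without Dicer, 6.58 to 6.70 without Dgcr8 and 6.38 to 6.86 in wild-type. Rp1, a microtubule protein of photoreceptor cilia, ranged over 4.81 to 5.87 without Dicer, 3.60 to 4.06 without Dgcr8 and 3.73 to 4.01 in wild-type.

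The DNA, chromatin and RNA group has 10 genes, with a median difference of 1.69 (1.32 to 3.81), led by Radx. The zinc finger gene Zfp869 measured 9.62, 9.46 and 9.45 in Dicer knockout oocytes, 6.55, 6.34 and 6.38 in Dgcr8 knockout oocytes, and 6.50, 6.44 and 5.98 in wild-type oocytes, a difference of 3.21. Zfp473, whose human counterpart takes part in processing histone pre-mRNA, measured 9.88, 9.53 and 9.96 in Dicer knockout oocytes, 6.44, 7.41 and 7.03 in Dgcr8 knockout oocytes, and 6.85, 6.81 and 6.56 in wild-type oocytes, a difference of 3.05. Rhox10, a homeobox gene of the X-linked reproductive cluster, measured 7.66, 7.06 and 7.18 in Dicer knockout oocytes, 4.73, 4.37 and 4.41 in Dgcr8 knockout oocytes, and 4.93, 4.71 and 4.23 in wild-type oocytes, a difference of 2.67. The Dicer knockout values of Zfp869 lay within 0.17 of each other, while the Dgcr8 knockout values of Zfp473 spread around its wild-type values. The linker histone gene H1f2 ranged over 7.80 to 8.19 without Dicer, 5.76 to 6.66 without Dgcr8 and 6.22 to 6.53 in wild-type. Hmgn3, a nucleosome-binding protein, ranged over 6.71 to 8.11 without Dicer, 5.25 to 5.78 without Dgcr8 and 5.23 to 5.78 in wild-type, and its replicate 3 was the high array. Rec114, which helps to start meiotic recombination, ranged over 7.39 to 8.19 without Dicer, 5.43 to 6.84 without Dgcr8 and 6.09 to 6.68 in wild-type. Malat1, a long nuclear RNA, measured 8.69, 8.61 and 7.09 in Dicer knockout oocytes, 6.29, 5.87 and 6.93 in Dgcr8 knockout oocytes, and 6.97, 6.68 and 6.30 in wild-type oocytes. Its replicate 3 without Dicer lay near the wild-type values and close to Dgcr8 knockout replicate 3, while the other 2 Dicer knockout arrays stood above 8. Zfp804b, a zinc finger gene, and Zc3h12b, of a family of ribonucleases, differed by 1.67 and 1.35.

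The sugar, lipid and metabolic enzymes are the largest group, with 16 genes and a median difference of 1.54 (1.254 to 5.25), led by Tstd3 and B4galnt2. Hs3st3a1, a sulfotransferase that modifies heparan sulfate, measured 8.14, 7.35 and 8.21 in Dicer knockout oocytes, 4.43, 4.81 and 5.04 in Dgcr8 knockout oocytes, and 5.56, 4.94 and 4.03 in wild-type oocytes. Its mean difference was 3.06, although its wild-type values lay as far apart as 4.03 and 5.56. Pla1a, a phospholipase that acts on phosphatidylserine, measured 9.76, 9.46 and 9.71 in Dicer knockout oocytes, 6.92, 6.75 and 6.95 in Dgcr8 knockout oocytes, and 6.87, 6.56 and 6.90 in wild-type oocytes, a difference of 2.87 with narrow groups. L3hypdh, a hydroxyproline dehydratase, measured 6.995, 6.69 and 7.32 in Dicer knockout oocytes, 4.40, 4.65 and 4.57 in Dgcr8 knockout oocytes, and 4.58, 4.73 and 4.83 in wild-type oocytes, a difference of 2.29. Galnt13, which starts O-glycans on proteins, ranged over 4.98 to 5.47 without Dicer, 3.52 to 3.74 without Dgcr8 and 3.43 to 3.61 in wild-type. Pdha2, the testis form of a pyruvate dehydrogenase subunit, ranged over 7.24 to 7.79 without Dicer, 5.94 to 6.36 without Dgcr8 and 5.54 to 6.38 in wild-type. Hsd17b10, a mitochondrial dehydrogenase, ranged over 7.49 to 8.79 without Dicer, 6.84 to 7.27 without Dgcr8 and 6.32 to 6.76 in wild-type, and Dicer knockout replicate 3 was well below the other 2. The lipid droplet coat protein Plin2 ranged over 7.37 to 7.94 without Dicer, 6.51 to 6.81 without Dgcr8 and 6.14 to 6.57 in wild-type. Hmox1, the haem oxygenase of the oxidative stress response, had the smallest difference of the set, 1.254, and ranged over 6.68 to 7.08 without Dicer, 5.30 to 5.53 without Dgcr8 and 5.48 to 5.74 in wild-type. The other 6 are Car3 (a carbonic anhydrase), Fabp2 (a fatty acid carrier), Sult4a1 (a sulfotransferase relative), Bpnt1 (a bisphosphate nucleotidase), Adsl (adenylosuccinate lyase) and Hyal3 (a hyaluronidase relative), with differences of 1.29 to 1.43.

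Among 11 immune and cell death genes the median difference was 1.40 (1.26 to 3.56), led by C9. Cflar, which encodes the inhibitor of caspase-8 at death receptors, measured 9.59, 9.55 and 9.67 in Dicer knockout oocytes, 7.30, 7.49 and 7.79 in Dgcr8 knockout oocytes, and 7.01, 6.75 and 7.16 in wild-type oocytes. Its difference was 2.63, and its Dicer knockout values lay within 0.12 of each other. Its other 2 probe sets differed by only 0.01 and 0.04 between the same groups, so the difference was carried by 1 of 3 probe sets. Wdfy4, which serves antigen cross-presentation in dendritic cells, ranged over 7.96 to 8.36 without Dicer, 5.99 to 6.32 without Dgcr8 and 5.99 to 6.37 in wild-type. Dapk1, a death-associated kinase, ranged over 7.89 to 8.06 without Dicer, 6.09 to 6.36 without Dgcr8 and 6.09 to 6.38 in wild-type, and Tnfsf10, the death ligand TRAIL, over 6.83 to 7.29 without Dicer, 5.69 to 6.12 without Dgcr8 and 5.44 to 6.07 in wild-type. The chemokine gene Ccl6 measured 7.08, 6.42 and 7.22 in Dicer knockout oocytes, 6.44, 5.44 and 5.81 in Dgcr8 knockout oocytes, and 5.73, 5.08 and 5.15 in wild-type oocytes. Ccl6 was the exception of the set, since Dgcr8 knockout replicate 1 stood above Dicer knockout replicate 2. The other 5 are the membrane proteins Cd69, Cd63, Cd200r3 and Clec2g, and Defa39, a defensin, with differences of 1.29 to 1.40.

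The 11 receptors and ligands had a median difference of 1.82 (1.29 to 2.67). Olfr1173, an odorant receptor, measured 5.65, 5.40 and 5.997 in Dicer knockout oocytes, 3.28, 2.41 and 2.85 in Dgcr8 knockout oocytes, and 2.96, 3.28 and 2.79 in wild-type oocytes, a difference of 2.67, and it overlapped between Dgcr8 knockout and wild-type arrays. The odorant receptor gene Olfr1340 ranged over 7.88 to 8.11 without Dicer, 6.21 to 6.77 without Dgcr8 and 5.76 to 6.50 in wild-type. Olfr915, named as an odorant receptor but annotated as a miscellaneous RNA, ranged over 5.98 to 6.64 without Dicer, 4.93 to 5.26 without Dgcr8 and 4.72 to 4.86 in wild-type. Taar9, a trace amine receptor, had the tightest Dicer knockout values of all 91 genes, within 0.11, at 6.95, 6.96 and 7.06 in Dicer knockout oocytes, 5.12, 5.35 and 5.21 in Dgcr8 knockout oocytes, and 5.36, 5.06 and 5.08 in wild-type oocytes. The bitter taste receptor Tas2r137 ranged over 5.30 to 6.04 without Dicer, 3.81 to 4.26 without Dgcr8 and 4.11 to 4.43 in wild-type. Gabrg3, a gamma subunit of the GABA-A receptor, measured 7.58, 7.93 and 8.13 in Dicer knockout oocytes, 6.04, 6.25 and 6.25 in Dgcr8 knockout oocytes, and 5.66, 5.69 and 5.86 in wild-type oocytes, a difference of 2.15. Its Dgcr8 knockout values were also all above wild-type, but by far less than its Dicer knockout values. Nrg3, a neuregulin that binds the receptor ErbB4, measured 8.43, 7.84 and 8.21 in Dicer knockout oocytes, 6.19, 5.08 and 6.16 in Dgcr8 knockout oocytes, and 5.19, 5.92 and 5.94 in wild-type oocytes, a difference of 2.48 with 1 low array in both of the other groups. Fam3b, a secreted cytokine-like protein of pancreatic islets, measured 7.98, 7.62 and 8.23 in Dicer knockout oocytes, 4.82, 5.05 and 5.31 in Dgcr8 knockout oocytes, and 5.60, 5.47 and 5.61 in wild-type oocytes. It was 2.38 higher without Dicer, while all 3 Dgcr8 knockout values lay below wild-type. Lepr, the leptin receptor, ranged over 7.55 to 7.67 without Dicer, 5.81 to 6.38 without Dgcr8 and 5.91 to 6.11 in wild-type, with its Dicer knockout values within 0.12. Drd3, a dopamine receptor, and Mrap, the accessory protein of the ACTH receptor, differed by 1.67 and 1.29.

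Transporters numbered 4, with differences of 1.71 in Slc22a14, of an organic ion transporter family, 1.69 in Slc5a4b, of a sugar transporter family, 1.58 in the intestinal peptide transporter Slc15a1 and 1.27 in the glutamine carrier Slc1a5. Slc1a5 ranged over 5.72 to 6.32 without Dicer, 4.39 to 4.83 without Dgcr8 and 4.56 to 4.89 in wild-type. Slc5a4b was the most even of the 4, at 6.89 to 7.30 without Dicer, 5.36 to 5.55 without Dgcr8 and 5.25 to 5.47 in wild-type.

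The signalling, traffic and turnover group has 13 genes and a median difference of 1.53 (1.26 to 3.11). Mcf2, the Dbl guanine nucleotide exchange factor, measured 9.10, 8.41 and 9.29 in Dicer knockout oocytes, 5.90, 5.78 and 5.68 in Dgcr8 knockout oocytes, and 5.37, 6.11 and 5.99 in wild-type oocytes, a difference of 3.11. Vav3, another exchange factor of that family, measured 7.66, 7.19 and 7.45 in Dicer knockout oocytes, 5.88, 5.34 and 5.71 in Dgcr8 knockout oocytes, and 5.47, 5.76 and 5.88 in wild-type oocytes, a difference of 1.73. Both had their lowest Dicer knockout value in replicate 2. Sytl5, an effector of Rab27 in vesicle traffic, measured 6.96, 6.77 and 6.90 in Dicer knockout oocytes, 4.44, 4.66 and 4.60 in Dgcr8 knockout oocytes, and 4.69, 4.54 and 4.53 in wild-type oocytes, a difference of 2.29. Its other probe set differed by 1.92. Sh2d4b, an SH2 domain adaptor, measured 9.02, 8.69 and 8.97 in Dicer knockout oocytes, 6.63, 6.44 and 6.71 in Dgcr8 knockout oocytes, and 6.78, 6.45 and 6.72 in wild-type oocytes, a difference of 2.24. Ralgapa2, a subunit of the GTPase activator of Ral, measured 8.41, 7.63 and 8.59 in Dicer knockout oocytes, 5.87, 5.99 and 6.38 in Dgcr8 knockout oocytes, and 6.23, 6.13 and 5.86 in wild-type oocytes, a difference of 2.13 with replicate 2 again the low array. The ubiquitin-conjugating enzyme Ube2r2 ranged over 8.36 to 8.64 without Dicer, 7.002 to 7.25 without Dgcr8 and 6.92 to 7.01 in wild-type, and the ubiquitin ligase Hace1 over 7.68 to 8.12 without Dicer, 6.84 to 7.06 without Dgcr8 and 6.66 to 6.76 in wild-type. The lysosomal protease cathepsin L, Ctsl, ranged over 6.33 to 6.57 without Dicer, 4.81 to 5.09 without Dgcr8 and 5.01 to 5.19 in wild-type. The sorting nexin Snx7 ranged over 8.01 to 8.43 without Dicer, 5.68 to 6.25 without Dgcr8 and 6.29 to 6.41 in wild-type. Ssr4, of the translocon complex, Ostm1, of the lysosome, Adamts12, an extracellular protease, and Gulp1, an engulfment adaptor, differed by 1.49, 1.34, 1.46 and 1.31.

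The remaining 18 genes were put in no group, and many carry clone-type or predicted names. The predicted gene 1700028P14Rik had the second largest difference of all, 4.14, at 9.16, 8.95 and 9.24 in Dicer knockout oocytes, 4.71, 5.40 and 4.92 in Dgcr8 knockout oocytes, and 5.40, 4.67 and 4.87 in wild-type oocytes. BC034090 and Fam229b differed by 2.39 and 2.26. Fam229b, a little studied small protein, measured 8.98, 8.64 and 8.16 in Dicer knockout oocytes, 6.48, 6.22 and 6.79 in Dgcr8 knockout oocytes, and 6.37, 6.37 and 6.26 in wild-type oocytes, with no overlap between the Dicer knockout and the other arrays. The widest Dicer knockout spread of the set was in I730030J21Rik, whose values of 5.42, 4.60 and 6.39 spanned 1.79, against 3.66, 3.59 and 3.71 in Dgcr8 knockout and 3.76, 3.54 and 3.66 in wild-type oocytes. Malat1 and Gm10823 followed, with spans of 1.60 and 1.52. Acte1, an actin gene, ranged over 7.51 to 7.72 without Dicer, 5.51 to 5.83 without Dgcr8 and 5.61 to 5.86 in wild-type. Ankrd36, an ankyrin repeat gene, differed by 1.96, and its other probe set by 0.67. The rest are Gm10280, Gm1141, Wfdc1, Samd5, Csta2, Lrmda, Mrvi1, Glipr1, Nexmif, Grcc10 and Endod1, with differences of 1.26 to 2.22.

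The Dicer knockout arrays were not equal among themselves. The median deviation of the 91 genes from the wild-type mean was 1.86, 1.55 and 1.80 (log2) in Dicer knockout replicates 1 to 3, 0.01, -0.02 and 0.09 in Dgcr8 knockout replicates, and 0.05, 0.05 and -0.07 in wild-type replicates. Replicate 1 was the highest Dicer knockout array in 51 of the genes and replicate 2 the lowest in 63. The median spread over the Dicer knockout arrays was 0.51, and it passed 1 in 11 genes. The median SD within a group was 0.27 in Dicer knockout, 0.21 in Dgcr8 knockout and 0.19 in wild-type arrays, against 0.11 in Dicer knockout, 0.11 in Dgcr8 knockout and 0.09 in wild-type arrays for low genes outside the set.

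**Figure D3:**
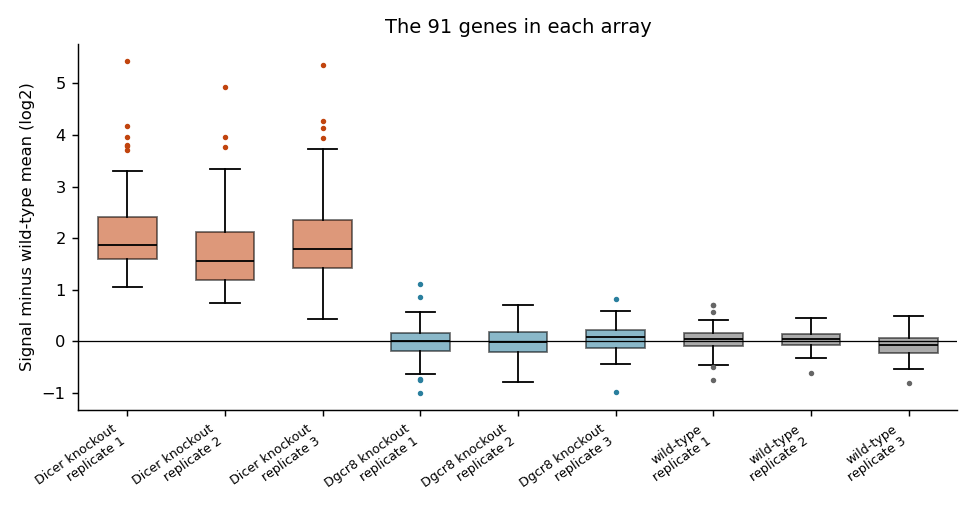
Log2 signal minus the wild-type mean of the same gene (vertical axis) for the 91 genes in each of the 9 arrays, as boxes of the quartiles with the median line, whiskers to the last value within 1.5 box lengths, and points beyond. The Dicer knockout medians are 1.86, 1.55 and 1.80, and the 6 other medians lie between -0.07 and 0.09.

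To see the difference in arrays to which the limits had not been applied, the same rule was applied to 2 arrays of each group and the difference was read from the pair left out, in all 9 ways. The rule chose 73 to 108 genes, of which 68 to 88 were among the 91. Their median difference in the pair left out was 1.30 to 1.93, against 1.64 to 1.78 in the arrays that chose them. Of the chosen genes 93.4% to 100% were above 0 in that pair, and 68.5% to 94.9% were above 1. The low genes not chosen had medians of -0.06 to 0.02 in the pairs, and 0.61% to 1.42% of them were above 1. The lowest medians, 1.30 to 1.45, came with Dicer knockout replicate 2 left out. The 9 pairs share arrays, so they are not independent of each other, and together they are the same 6 arrays that chose the 91 genes. The probe set of a gene with several was still the brightest over all 9 arrays.

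**Figure D4:**
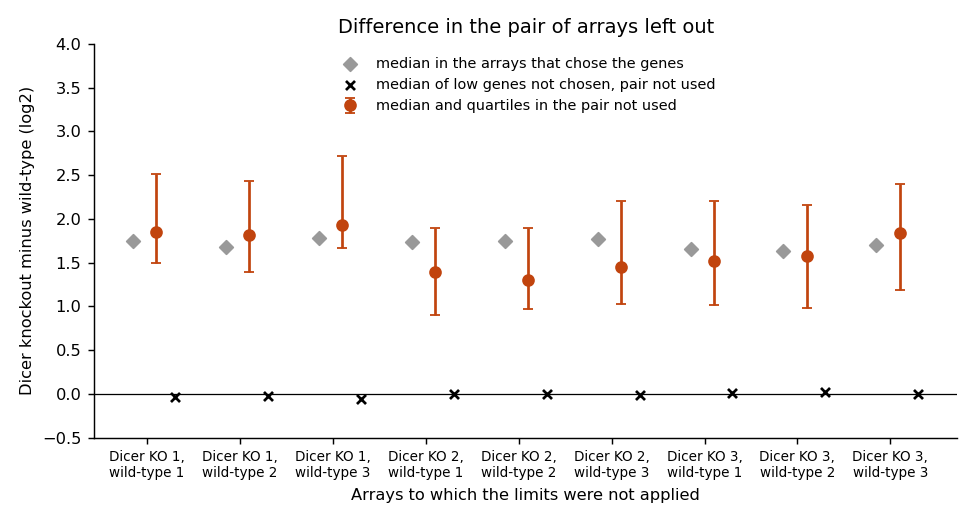
Dicer knockout minus wild-type difference on the log2 scale (vertical axis) in each of 9 pairs of arrays to which the limits were not applied (horizontal axis), as the median and quartiles of the genes chosen without that pair, the median in the arrays that chose them, and the median of low genes not chosen. The medians of the chosen genes lie between 1.30 and 1.93, and those of the other low genes near 0.

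The limits used no Dgcr8 knockout value, and none of the genes of the set that were tested was called there. The Dgcr8 knockout arrays did count in the choice of the brightest probe set, which concerns the 5 genes of the set with several probe sets. The median difference between Dgcr8 knockout and wild-type oocytes was -0.0010 (log2), with quartiles of -0.13 and 0.13, and 44 of 91 genes were above 0. Over all genes the median was -0.0028, and over low genes outside the set -0.0098. Of the 90 genes tested, 0 were called at an adjusted p under 0.05 (limma, Benjamini-Hochberg over 17324 genes), where 4 of all genes tested, or 0.0231%, were called (0.0173% higher and 0.00577% lower). At an unadjusted limma p under 0.05 stood 5 of the 90 genes, against 457 of 17324 over all genes (2.64%), so the set's share was the higher. The wild-type arrays of this test also served the rule, and the genes are low there by choice. Cd63 was not tested, since it reached a signal of 4 in fewer than 3 arrays, and 6 of the 91 reached that signal in fewer than 3 of the 6 Dgcr8 knockout and wild-type arrays.

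The 95% intervals of the fit give the range for each Dgcr8 knockout difference. For Tstd3 the Dgcr8 knockout difference was -0.32 with a 95% interval of ± 0.46 (limma). For Radx it was -0.20 ± 0.54, for Saxo1 0.13 ± 0.36, for B4galnt2 -0.0029 ± 0.45 and for C9 0.30 ± 0.50. In 86 of the 90 genes the whole 95% interval lay within 1 of 0 and in none did it reach the difference limit of the rule. These 90 include Olfr1173, I730030J21Rik, Galnt13, Rp1 and Fabp2, which met the signal floor only with the Dicer knockout arrays that chose them, so the counts are a description. The median reach of the interval to each side was 0.41 in these genes and 0.23 over all genes tested, so the set was measured less precisely than most genes.

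The highest Dgcr8 knockout differences were in Ccl6 (0.57), Cflar (0.56), Hsd17b10 (0.49), Gabrg3 (0.44) and Hyal3 (0.39), and the lowest in Fam3b (-0.50), Cd69 (-0.43), Lrmda (-0.37), Snx7 (-0.36) and Gm1141 (-0.34). The other probe sets of Cflar went the other way, with Dgcr8 knockout differences of -0.16 and -0.15. The 5 at an unadjusted p under 0.05 were Cflar (0.00259), Gabrg3 (0.00943), Fam3b (0.0119), Snx7 (0.0408) and Olfr915 (0.0468), and each had an adjusted limma p of 1. All Dgcr8 knockout values lay above wild-type in Cflar, Gabrg3, Hsd17b10, Olfr915 and Hace1, 5 of 91 genes where the background was 3.40% over all genes and 2.42% over low genes outside the set. They lay below wild-type in Fam3b, Snx7 and Car3, 3 of 91 where the background was 3.00% over all genes and 2.94% over those low genes. In 90 of the 91 genes every Dgcr8 knockout value lay below every Dicer knockout value, with Ccl6 as the exception. The Dicer knockout arrays used there are those that chose the genes, and the background was 9.18% over all genes and 6.03% over low genes outside the set.

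Families of the leading genes were followed to see whether their relatives differed too. The families were picked around genes already known to lead the comparison. For genes outside the set the fit gives a test between Dicer knockout and wild-type oocytes, and over all genes 4.87% were called higher and 6.47% lower. Of 4 rhodanese-domain genes tested outside the set, Tstd2 was the only one called, higher by 0.89 ± 0.25 (log2, SE; limma adjusted p 0.0447), a call that was made in only 7 of 17 settings and was lost, for example, without wild-type replicate 1 (0.149). Mpst, Tst and Mocs3, sulfur transfer enzymes of the same fold, differed by -0.36, 0.03 and 0.03. Of 8 genes of single-stranded DNA and forks outside the set, none was called higher, and Zranb3, a fork remodeller, was called lower, at -0.59 ± 0.15 (SE; limma adjusted p 0.0301, lost in 5 of 17 settings, up to 0.101 without wild-type replicate 2). The subunits of RPA, the main single-stranded DNA-binding complex, differed by 0.20 (Rpa1), -0.08 (Rpa2) and -0.05 (Rpa3).

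Of 10 ciliary microtubule proteins tested outside the set, Tekt2, a tektin of flagella, was higher by 0.98 ± 0.15 (log2, SE; limma adjusted p 0.00278) and was called in all 17 settings. Saxo2, the closest relative of Saxo1 in name, was called lower, at -0.61 ± 0.16 (SE; limma adjusted p 0.0370, called in 10 of 17 settings). Without wild-type replicate 3 the Saxo2 difference was -0.40 (limma adjusted p 0.0571), and without Dicer knockout replicate 1 it was -0.56 (limma adjusted p 0.114). Of 5 N-acetylgalactosaminyltransferases outside the set, B3galnt2 was called lower, at -0.30 ± 0.07 (SE; limma adjusted p 0.0159, called in 14 of 17 settings, lost without wild-type replicate 1 at 0.0622), and B4galnt1, B4galnt3 and B4galnt4 differed by -0.00083, -0.07 and 0.07. Every relative of Saxo1 and B4galnt2 on the array differed by less than 1 in either direction.

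The complement list shows the other late components beside C9. Of 13 tested outside the set, C1qb, a subunit of the first component, was higher by 1.62 ± 0.11 (log2, SE; limma adjusted p 1.16e-05) and was called in all 17 settings. Its wild-type mean of 7.09 kept it out of the set. Its partners C1qa and C1qc differed by 0.18 and 0.27 and were not called. Cfi, the complement factor I protease, was higher by 0.96 ± 0.21 (SE; limma adjusted p 0.0161, called in 11 of 16 settings and lost without wild-type replicate 3, at 0.0695). Of the other genes of the membrane attack complex, Hc, which encodes the fifth component, was called lower, at -0.62 ± 0.11 (SE; limma adjusted p 0.00459), C8b was called lower, at -0.33 ± 0.08 (SE; limma adjusted p 0.0219, called in 11 of 16 settings and lost, for example, without wild-type replicate 3, at 0.0900), and C7, C8a and C8g differed by -0.02, 0.05 and -0.01. C6 was below 4 in every array. No gene of the complex outside the set was called higher.

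The last 2 families hold guanine nucleotide exchange factors and enzymes of a membrane lipid. Of 13 Dbl-family exchange factors tested beside Mcf2 and Vav3, none was called higher, while Tiam1 was called lower, at -0.27 ± 0.04 (log2, SE; limma adjusted p 0.00212) and so was Trio, at -0.49 ± 0.10 (SE; limma adjusted p 0.00839, lost with the mean of its probe sets, at -0.26 and an adjusted p of 0.197). Of 8 genes around phosphatidylinositol bisphosphate, the phosphatase gene Pip4p2 averaged 10.69 ± 0.23 in Dicer knockout, 7.12 ± 0.24 in Dgcr8 knockout and 7.24 ± 0.16 in wild-type oocytes (SD, n = 3 each), and the wild-type mean above 7 kept it out of the set. This list holds no gene of the set and was picked around Pip4p2, which already led the comparison. Its difference of 3.45 (log2) without Dicer is therefore a description with no test. The relative Pip4p1 differed by -0.08. The 7 families hold 68 tested genes when the genes of the set are counted with their relatives. Of these 68, 0 were called by limma between Dgcr8 knockout and wild-type oocytes, where 0.0231% of all genes were called. At an unadjusted p under 0.05 stood 2 of the 68, where 2.64% of all genes did, so neither count sets these families apart.

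**Figure D5:**
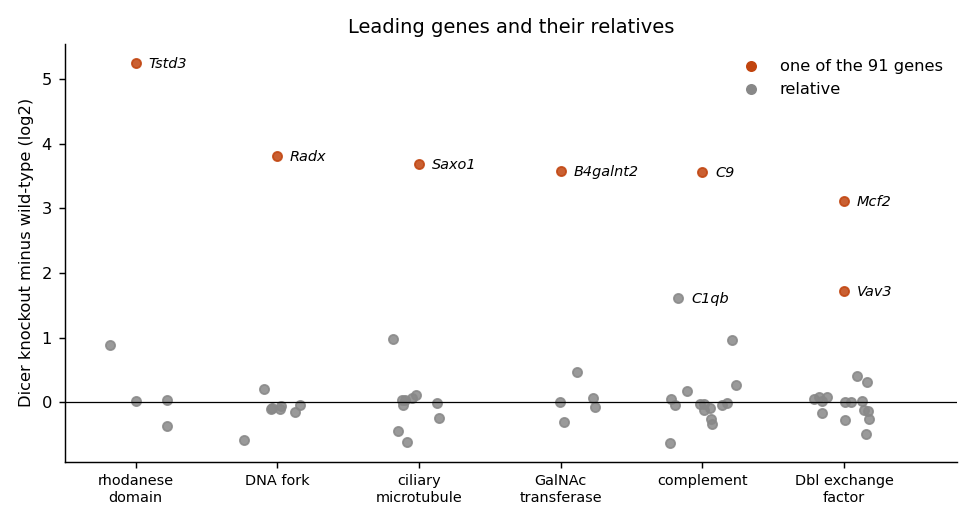
Dicer knockout minus wild-type difference on the log2 scale (vertical axis) for the genes on the array in 6 families (horizontal axis), each point 1 gene, spread sideways for sight, with genes of the set in orange and relatives in grey. Tstd3, Radx, Saxo1, B4galnt2, C9, Mcf2 and Vav3 stand at 1.73 to 5.25, and of the relatives only C1qb, at 1.62, is above 1.

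Markers of other cells that an egg sample could hold were read beside the set. Of 14 cumulus and granulosa markers tested, 0 were called by limma between Dicer knockout and wild-type oocytes (at an unadjusted p under 0.05, 1 higher and 3 lower, where 23.7% of all genes stood at such a p), and their log2 summed signal was 10.03 to 10.19 in Dicer knockout, 10.27 to 10.52 in Dgcr8 knockout and 10.29 to 10.40 in wild-type arrays. Most of this sum came from Nr5a2, which averaged 9.39 in Dicer knockout, 9.79 in Dgcr8 knockout and 9.80 in wild-type oocytes, so the sum says little about the other markers. Nr5a2 was called lower with quantile normalization and with a signal floor of 6. Ptgs2 had the largest difference of the list, 0.72 ± 0.30 (SE), and was not called. Its SD was 0.64 in Dicer knockout and 0.45 in wild-type arrays. The median difference of the 14 markers tested was -0.04. Of 8 immune and blood markers, Cd68 was called higher (0.96 ± 0.20, SE; limma adjusted p 0.0110, lost without wild-type replicate 3 at 0.0507), the leukocyte marker Ptprc differed by -0.04, Adgre1 was below 4 in every array, and the summed signal was 8.47 to 9.01 in Dicer knockout, 8.36 to 8.48 in Dgcr8 knockout and 8.24 to 8.48 in wild-type arrays. Lyz2, of the same list, differed by 0.57 and was not called. Its SD was 1.35 in Dicer knockout, 0.13 in Dgcr8 knockout and 0.15 in wild-type arrays. Of 7 oviduct secretory markers 0 were called by limma, and 0 had an unadjusted p under 0.05, with a summed signal of 11.06 to 11.11 in Dicer knockout, 11.06 to 11.22 in Dgcr8 knockout and 11.12 to 11.22 in wild-type arrays, and Sprr2f was below 4 in every array. Most of that sum came from Cdh1, which averaged 10.84 in Dicer knockout, 10.89 in Dgcr8 knockout and 10.92 in wild-type oocytes. Of 13 oviduct ciliated cell markers only Tekt2 was called, Foxj1, the master regulator of such cells, differed by 0.03, Rsph4a was below 4 in every array, and the summed signal was 9.63 to 9.70 in Dicer knockout, 9.35 to 9.53 in Dgcr8 knockout and 9.39 to 9.48 in wild-type arrays. The summed ciliated marker signal was higher in all 3 Dicer knockout arrays than in the other 6, but 1 gene carried this. Without Tekt2, left out after its values were seen, the sum was 8.98 to 9.19 in Dicer knockout, 9.05 to 9.13 in Dgcr8 knockout and 9.09 to 9.20 in wild-type arrays, which overlap. The median difference of the 13 markers tested was 0.03. Uncalled markers lay on both sides of 0: Tekt4 differed by -0.44, Mcidas by -0.18 and Cfap52 by -0.15, while Capsl differed by 0.43, Ccdc39 by 0.14 and Cfap43 by 0.14. The part of Tekt2 in the values of the cilia genes was not tested. The part of Cd68 in the values of the immune genes was not tested either.

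The 91 genes lie on 19 chromosomes. Chromosome X held 9 of them (9.89%, against 3.20% of genes tested and 4.14% of low genes), among them Radx, Mcf2, Rhox10 and Sytl5. Chromosome 16 held 8 (8.79% against 3.11% of genes tested), chromosome 10 held 8 (8.79% against 4.81%), and chromosome 17 held 0. The genes had a median span of 35886 bases, against 12659 in low genes outside the set and 19816 over all genes tested, and 85 of them (93.4%) are annotated as protein-coding.

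A neighbour is here the nearest gene with a probe set on each side along the chromosome, at any distance. Of 152 tested neighbours that are not themselves in the set, 9 were called higher without Dicer by limma (5.92%), against 4.14% of the neighbours of low genes outside the set, and the median difference of the 152 was -0.06. Among the 9 is Olfr1168, which met the signal floor only with the Dicer knockout arrays, where it was higher (4.14, against 3.45 in wild-type). Nrg3 and Sh2d4b on chromosome 14 are the only neighbours by this order that are both in the set, with 1338285 bases between them. Rnf128, 8755 bases from Radx, was higher by 0.92 ± 0.13 (log2, SE; limma adjusted p 0.00171), and Dynlt3, a dynein light chain 84638 bases from Sytl5, by 1.30 ± 0.15 (SE; limma adjusted p 0.000398). Stpg2, the nearest such gene on 1 side of Pdha2 but 1499704 bases away, was higher by 1.09 ± 0.15 (SE; limma adjusted p 0.00140), and Slc5a4a, 36432 bases from its paralog Slc5a4b, by 0.60 ± 0.12 (SE; limma adjusted p 0.0113). Whether probes tell these paralogs apart was not tested. The neighbours named here were chosen after their values were seen.

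Of the 91 genes, 43 overlap another annotated gene, and strand was not considered. The share of all genes that do so is not given here. The overlapping genes that had a probe set of their own numbered 16. Of the 15 tested, 0 were called higher by limma and 3 lower, where 4.87% of all genes were called higher and 6.47% lower. At an unadjusted limma p under 0.05, 0 of them stood higher. With so few genes at such shares, 0 higher calls do not set them apart. Tstd3 overlaps Ccnc and Usp45. Ccnc, which encodes cyclin C, differed by -0.05, and Usp45, a deubiquitinase, was called lower, at -0.42 ± 0.08 (SE, limma adjusted p 0.00778). Whether the overlap has a part in the Tstd3 values was not tested.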

How the data were processed

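Total RNA of 9 mouse oocyte samples was measured on arrays, 3 each of Dicer knockout, Dgcr8 knockout and wild-type. The deposited values are log2 signals, 1 per probe set and array, made by the authors with GCRMA, per the submitters' processing notes, whose settings the sources used here do not give. The table holds 35557 probe sets, of which 21789 name 1 gene. Each of 19938 genes was read from its brightest probe set (mean over 9 arrays). The replicates are biological per the labels, and p-values measure the spread between them; 3 arrays per group limit the precision.

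Genes at 4 or more (log2) in at least 3 of 9 arrays (17324) were fitted with limma 3.58.1 (R 4.3.3, statmod 1.5.0; lmFit, eBayes with trend and robust settings), two-sided, all 9 arrays in 1 fit, with adjusted p (Benjamini-Hochberg) under 0.05 as the threshold. The fit was tested on simulated data. Alternatives changed the limits of the rule, scaling, probe set choice, filter, eBayes settings, arrays in the fit and a replicate block. The genes, lists and rules were chosen with earlier results of these data known, and the role groups were made after the values were seen. Named are the 5 markers, the 25 largest differences without clone-type names, genes at the limits, genes called and the 5 highest and 5 lowest differences in the Dgcr8 knockout, the 3 widest and 3 narrowest Dicer knockout spreads, up to 4 called genes per list, and neighbours both in the set. Other genes were named to account for every gene or, for relatives, neighbours and overlapping genes, after their values were seen. Reference names and promoters come from RefSeq (GRCm38.p6). Protein lengths, which had been planned, were not computed, since no protein table was used here.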

Additional observations from a re-analysis of the deposited data

How the results depend on the processing

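The number of genes in the set depended on its limits. With a wild-type limit of 6 there were 55 genes, and with a difference of 2 there were 30. With a wild-type limit of 8 there were 125, with a difference of 1 there were 124, and with overlap allowed 93. With quantile normalization there were 88, and with probe sets averaged per gene 90. The median Dicer knockout difference was 1.48 with a difference limit of 1 and 2.65 with a limit of 2, as the limit itself sets it. Leaving out 1 array at a time gave 76 genes (without Dicer knockout replicate 1) to 98, a median Dicer knockout difference of 1.69 to 1.82 and a median Dgcr8 knockout difference of -0.02 to 0.05.

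In the Dgcr8 knockout comparison 0 genes of the set were called by limma in every setting, with 4 to 10 at an unadjusted p under 0.05. With plain eBayes it was 4 of 90, where 478 of 17324 over all genes stood at such a p. Without wild-type replicate 1 it was 10 of 90, against 403 of 17299 over all genes. With only the 2 groups compared it was 10 of 85, against 571 of 17238. In these settings, as in the main fit and all the others, the set's share was above that over all genes. Over all genes 2 were called with only the 2 groups compared, and 2 to 4 with 1 array left out (2 without any 1 Dgcr8 knockout array or without wild-type replicate 1). In the Dicer knockout comparison 1238 genes were called without wild-type replicate 3 and up to 1959 without another array, against 1964 with all arrays.

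Whether the replicate numbers pair the samples was looked at in each gene's deviation from its group mean, correlated between arrays over the genes tested. Deviations of same-numbered arrays correlated at 0.10, 0.04 and 0.11 between Dicer knockout and wild-type, each Dicer knockout array correlating best with its own number. Between Dgcr8 knockout and wild-type they correlated at -0.02, -0.03 and -0.20, each lower than with another number. These small values do not settle whether the numbers pair samples. With a replicate block 0 genes of the set and 3 of all genes were called in the Dgcr8 knockout comparison, and 1797 in the Dicer knockout comparison.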

Other observations

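Probe sets outside the gene table also passed the limits. Of probe sets that name several genes, 8 of 875 low ones did (0.914%), and of those unnamed here 44 of 9899 (0.444%), against 112 of 13651 low probe sets that name 1 gene (0.820%). The largest Dicer knockout difference was 4.25 (log2) among the first and 4.04 among the second. Their median Dgcr8 knockout differences were 0.12 for probe sets with several genes and 0.05 for unnamed ones.

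Of the genes in the set, 5 had other probe sets. The other probe set of Armc4 differed by 1.96 between Dicer knockout and wild-type means, against 2.36 for the one reported. That of Sytl5 differed by 1.92 against 2.29, that of Wdfy4 by 1.04 against 1.98 and that of Ankrd36 by 0.67 against 1.96. Cflar alone had other probe sets with no Dicer knockout difference beyond 0.04.

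The 9 genes left out by name had Dicer knockout differences of 1.27 to 3.50. Asns, the asparagine synthetase, led them with means of 9.04 in Dicer knockout, 5.20 in Dgcr8 knockout and 5.53 in wild-type oocytes.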
